A study of Drosophila melanogaster with 2 samples.

Results

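The genes described here are 9 Drosophila genes that encode insulator, DRE-binding and interband proteins: Dref, BEAF-32, CTCF, su(Hw), Ibf1, Ibf2, Cp190, mod(mdg4) and Chro. They were taken by name, as 9 of the 13945 protein-coding genes (18164 genes in all) that the annotation places on 6 chromosome arms, and every summit in a gene body or within 2 kb of it was collected. The question was where the product of CG4282 was bound at these genes. The data are chromatin immunoprecipitation followed by sequencing (ChIP-seq) with an anti-GFP antibody, from a stably transgenic fly line whose CG4282 product carries GFP at its C-terminus. Whole embryos of both sexes, pooled and aged 0 to 24 h, gave 2 biological replicates, numbered 3 and 4 in the labels, in 1 group. There was no control library or other genotype among the samples. The immunoprecipitated protein comes from a transgene, and a whole embryo mixes all cell types and stages, so a peak cannot be tied to a cell type. Sonicated chromatin of 200 to 800 bp was used, which limits how finely a summit places binding.

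Insulators, also called boundary elements, keep enhancers and chromatin states from acting across them and lie between many domains of the folded fly genome. Most are recognised by a DNA-binding protein, which then brings in shared cofactors with a BTB domain. BEAF-32 recognises repeats of CGATA, and DREF recognises the DNA replication-related element (DRE), TATCGATA, which contains CGATA on both strands, so both can meet at the same promoter. CTCF and Su(Hw) are zinc finger proteins with longer sites, Su(Hw) being the protein of the gypsy insulator. Ibf1 and Ibf2 bind DNA together, and CP190 and Mod(mdg4) are cofactors. Chromator, the product of Chro, is a chromodomain protein of the interbands of polytene chromosomes.

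Stretches of DNA at the member genes are printed next because the strongest summits of Chro, Dref and mod(mdg4), and those nearest the starts of Cp190 and Ibf2, lie in or beside them. All are dm6, plus strand, read 5′ to 3′ from the RefSeq Release 6 genome, and capitals mark every match to the DRE (TATCGATA), the BEAF-32 core (CGATA, or TATCG where it reads on the minus strand) and the word CAACACTG (CAGTGTTG on the minus strand). The first is the 30 bp around the Chro summit at chr3L:22878889-22878918, inside the Chro 5′ UTR. The next is the 83 bp between the starts of Dref and the ribosomal protein gene RpL13 at chr2L:9967230-9967312. The mod(mdg4) stretch, chr3R:21365489-21365608, is the 120 bp between the starts of the internal transcription units pre-mod(mdg4)-E and pre-mod(mdg4)-Y and holds none of the motifs. The Cp190 stretch, chr3R:15275230-15275341, starts 12 bp inside the gene and runs upstream of its start, and the Ibf2 stretch, chr3R:9258472-9258551, does the same from 30 bp inside. Both edges were set so that a motif spanning the start was kept.
Chro summit: tgtCGATAgctttaaactaactgcagtcca
Dref and RpL13: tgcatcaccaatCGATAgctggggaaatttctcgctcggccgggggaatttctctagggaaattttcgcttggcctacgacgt
pre-mod(mdg4)-E and -Y: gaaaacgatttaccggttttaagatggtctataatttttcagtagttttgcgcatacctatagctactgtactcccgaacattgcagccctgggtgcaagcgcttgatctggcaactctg
Cp190 start: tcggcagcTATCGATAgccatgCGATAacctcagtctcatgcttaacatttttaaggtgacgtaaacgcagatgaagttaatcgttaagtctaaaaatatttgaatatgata
Ibf2 start: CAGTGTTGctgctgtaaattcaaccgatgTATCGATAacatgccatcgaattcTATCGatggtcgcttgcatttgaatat

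Each peak list came as intervals with a summit and a signal, the authors' enrichment value for the peak (column 7). The optimal list held 1985 peaks with signals from 66.9 to 1065 (median 93.8), and these were exactly the 1985 strongest of the 30000 pooled relaxed peaks, whose next signal was 66.8. Each replicate also had 30000 relaxed peaks, with median signals of 9.57 in replicate 3 and 21.0 in replicate 4. Signals were therefore compared by rank within a list, with rank 1 the strongest. Of all optimal peaks, 1870 met a summit within 100 bp in both replicates, and 60.9% were among the strongest 1985 of each. With no read counts at hand, the depth of each library is unknown and no interval is given for a signal.

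Optimal peaks lay at 3 of the 9 members, Chro, Dref and mod(mdg4), and at the start of 2 of them, Chro and Dref. Over all protein-coding genes, 21.0% had an optimal summit in the gene or within 2 kb and 11.4% had one at most 500 bp from a transcription start site (TSS). The members' shares rest on few genes and were not tested against these values. Longer genes have more room for a peak, with shares of 17.1% for genes up to 5 kb, 31.1% from 5 to 20 kb and 37.1% above 20 kb. Dref was the 1 of the 7 members up to 5 kb with an optimal summit, while Chro (5283 bp) and mod(mdg4) (26556 bp) are the longest members. In the pooled relaxed list every one of the 9 members had a summit in the gene or within 2 kb, as had 82.7% of protein-coding genes. Within 500 bp of an own TSS, 7 members had a pooled summit, against 51.6% of protein-coding genes, and su(Hw) and mod(mdg4) had none.

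**Figure D1:**
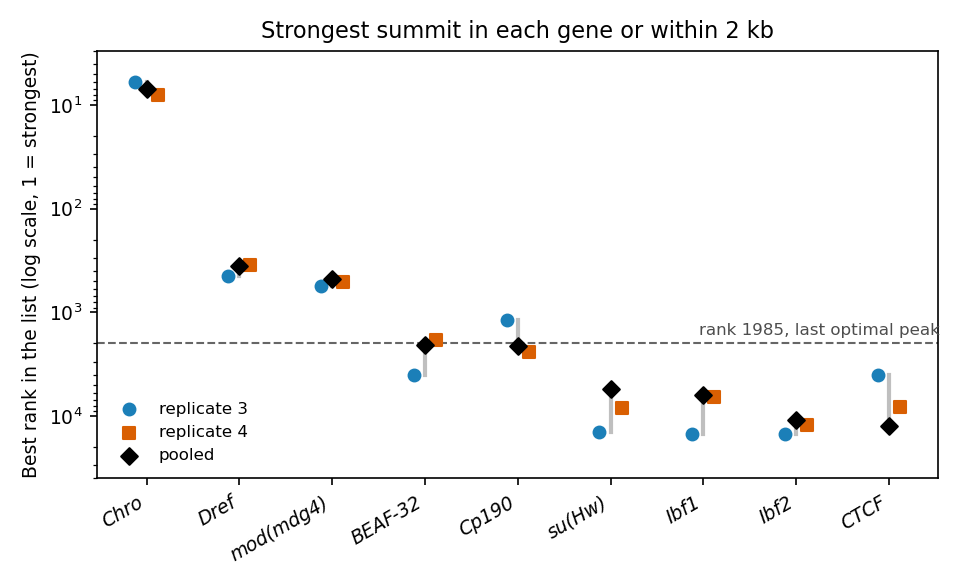
Best rank of any summit in each member gene or within 2 kb of it, on a log axis with rank 1 at the top, for the pooled list (diamonds), replicate 3 (circles) and replicate 4 (squares), with a grey bar over the 3 values and a dashed line at rank 1985, the last optimal peak. Chro, Dref and mod(mdg4) lie above the line in all 3 lists, BEAF-32 and Cp190 lie close to it, and the other 4 lie below it in all 3.

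Chro held the strongest peak of the 9 genes. Chro (FBgn0044324) lies on 3L from 22873702 to 22878984 on the minus strand, and its product Chromator works with the zinc finger protein Z4 and the kinase JIL-1 at interbands. The optimal peak, 3L 22878744 to 22879059, had a signal of 696 and rank 7. Its rank was 6 in replicate 3, with a signal of 323, and 8 in replicate 4, with a signal of 372. The replicate summits were 2 bp away from the pooled one and at the same base. The summit, 22878904, was 80 bp downstream of the outermost Chro start, 136 bp upstream of another Chro start and 185 bp upstream of the first start of Ssl1, a TFIIH subunit gene on the plus strand. The peak interval thus covers part of the region between the 2 genes, and the data cannot assign it to either.

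No other Chro summit came near that rank. In the pooled list the gene and its flanks held 5 summits, and the remaining 4 ranked from 6408 to 29439, all in coding exons of Chro or of its neighbour CG11109. The best of them, 22877858 (signal 39.2), was 326 bp downstream of a Chro start and ranked 5570 in replicate 3 and 10946 in replicate 4. Replicate 3 had 5 summits there and replicate 4 had 7. A weak optimal peak lay further out, at 3L 22870881 to 22871280 (signal 68.1, rank 1894), 6 bp inside the start of Arf1, a small GTPase gene.

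Dref had the next strongest peak. Dref (FBgn0015664) spans 2L 9964147 to 9967229 on the minus strand and encodes the DRE-binding factor. The optimal peak was at 2L 9967070 to 9967469, with a signal of 149 and rank 356. It ranked 445 in replicate 3 (signal 59.8) and 352 in replicate 4 (signal 89.1), with summits 6 bp to the left and 5 bp to the right of the pooled one. That summit, 9967270, stood between the starts of a divergent pair, 41 bp upstream of Dref and 43 bp upstream of RpL13. Inside Dref, an intronic summit at 9965334 (pooled signal 46.6, rank 4232) ranked 10038 in replicate 3 and 3059 in replicate 4, a 3.28-fold gap. The peak at the start differed 1.26-fold. For all pooled summits met in both replicates, the median gap was 1.52-fold at pooled ranks 1 to 500 and 2.40-fold (upper quartile 4.14-fold) at ranks 3501 to 5000, so the intronic gap was between the median and upper quartile for its strength.

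BEAF-32, the boundary element-associated factor (FBgn0015602, 2R 14770469 to 14772630, plus strand), had no optimal peak and several relaxed ones. Its gene and flanks held 7 pooled summits, 4 of them in the gene body and 3 on the side of Spred. This is 1.14 per kb of region, at percentile 98.8 of protein-coding genes, whose median was 0.347 per kb. Of these summits only the best was met within 100 bp in both replicates, and the weakest ranked 25008. The best, at 14769403, had a signal of 65.4 and rank 2065, just outside the optimal list. It lay 1066 bp upstream of the nearest BEAF-32 start and 20 bp inside the start of Spred, so it is nearer to that neighbour. It ranked 5089 in replicate 3 (signal 16.0) and 1837 in replicate 4 (signal 44.6). At BEAF-32 itself, the best pooled summit was in a coding exon 223 bp downstream of a start (14771524, signal 49.2, rank 3755). Replicate 4 had a summit 29 bp from it at rank 2377. The best summit of replicate 3 in the gene, 14771421, ranked 3991. It lay just beyond the 100 bp limit, and its peak interval overlapped the pooled one. The nearest optimal peak was 18150 bp from the gene.

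CTCF, which encodes the fly homologue of the vertebrate insulator protein (FBgn0035769, 3L 7353578 to 7356713, minus strand), had the weakest pooled rank of the 9 genes. Its 3 pooled summits ranked 12568, 14054 and 20908, with signals of 30.1, 28.8 and 24.3. No summit in the gene body was met within 100 bp in both replicates. In replicate 3 the best was 174 bp downstream of the start (rank 4054, signal 18.1), and no summit of replicate 4 lay within 100 bp of it. In replicate 4 the best was in a coding exon 2164 bp downstream (rank 8287, signal 26.1). The 1 summit met in both replicates was in a coding exon of the neighbouring gene pst and ranked 17972 and 12658. The nearest optimal peak (signal 79.0, rank 1417) was 3307 bp from CTCF, and its summit was 96 bp inside the start of pst.

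At su(Hw) (FBgn0003567, 3R 14304455 to 14308589, minus strand), the best ranks were 5497 in the pooled list, 14362 in replicate 3 and 8475 in replicate 4. The best pooled summit, 14309429 (signal 41.8, rank 5497), was in a coding exon of Polr2I, an RNA polymerase II subunit gene, 840 bp upstream of su(Hw). It was at the same base in both replicates, with rank 14421 in replicate 3 and 8475 in replicate 4. The other 3 pooled summits ranked 13078 to 25011. The 1 summit within 500 bp of the su(Hw) start in any list was in its 5′ UTR in replicate 3 (rank 14362, signal 9.76). The nearest optimal peak was 18446 bp away at trx, with a signal of 68.0.

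Ibf1 (FBgn0037670, 3R 9258964 to 9260400, plus strand) and Ibf2 (FBgn0037669, 3R 9257727 to 9258501, minus strand) are neighbours that point away from each other, and their products bind insulators together and bring in CP190. They shared 1 pooled summit, 9258469, with a signal of 31.9 and rank 10900, which lay 32 bp inside Ibf2 and 495 bp upstream of Ibf1. Its rank was 14893 in replicate 3 (signal 9.60) and 14948 in replicate 4 (signal 21.1), and the summit was the same base in all 3 lists. The ranks are in the middle of each list of 30000, so the site was found alike but was weak in both libraries. The best pooled summit in the Ibf1 region, 9260616 (signal 39.5, rank 6279), was 22 bp upstream of ATP6AP2, a V-ATPase accessory gene, and had no replicate 3 summit within 100 bp. None of the pooled summits lay in the Ibf1 gene body.

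Among the cofactors, Cp190 (FBgn0000283, 3R 15270432 to 15275241, minus strand) was just outside the optimal list. Its best pooled summit, 15275271, was 30 bp upstream of its start, with a signal of 65.0 and rank 2099. It ranked 1180 in replicate 3 (signal 35.9) and 5037 in replicate 4 (signal 30.8). The replicates thus differed 4.27-fold in rank at this promoter, where pooled summits of ranks 1501 to 2500 met in both replicates had a median of 1.99-fold and an upper quartile of 3.24-fold. The summit would be among the strongest 1985 of replicate 3 but not of replicate 4. The strongest summit of replicate 4 in the region (rank 2425, signal 39.9) was in a coding exon of CG4338, 821 bp upstream of Cp190, where replicate 3 had no summit within 100 bp. The nearest optimal peak was 10995 bp from the gene, at Tm1 (signal 90.1).

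The mod(mdg4) peak was not at the mod(mdg4) start. The gene (FBgn0002781, 3R 21350846 to 21377401, minus strand) makes many BTB proteins by joining its common exons, in trans, to exons of separately transcribed units, of which the annotation lists 23 as pre-mod(mdg4) genes, 9 on the plus and 14 on the minus strand. The optimal peak, 3R 21365305 to 21365704, had a signal of 132 and rank 482. It ranked 560 in replicate 3 (signal 53.8) and 512 in replicate 4 (signal 76.7), with summits at the same base and 15 bp away, a 1.09-fold gap in rank. The summit, 21365505, was in an intron 11896 bp downstream of the mod(mdg4) start. It was 17 bp upstream of a start of pre-mod(mdg4)-E on the minus strand and 104 bp upstream of the plus-strand start shared by pre-mod(mdg4)-Y and others. So it stood between divergent starts, as the Dref summit did.

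Further summits at mod(mdg4) were weaker and spread along the gene. There were 12 pooled summits in all, or 0.393 per kb of region (percentile 56.6), while the median protein-coding gene is 2166 bp long with 3 pooled summits. After the peak in the intron came a coding exon summit at 21375543 (signal 54.5, rank 2992), which ranked 7915 in replicate 3 and 2277 in replicate 4. A summit in the 5′ UTRs of several pre-mod(mdg4) genes, 21359623 (pooled rank 7339), ranked 18498 and 4422. Near the start of mod(mdg4) itself, replicate 3 had a summit 40 bp upstream (rank 7180, signal 13.5), while the nearest of replicate 4 was 500 bp downstream at rank 23331. A pair of summits beyond the 3′ end, near the start of aus, had close ranks in the replicates, 4480 and 3162 for the one and 4695 and 3693 for the other.

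**Figure D2:**
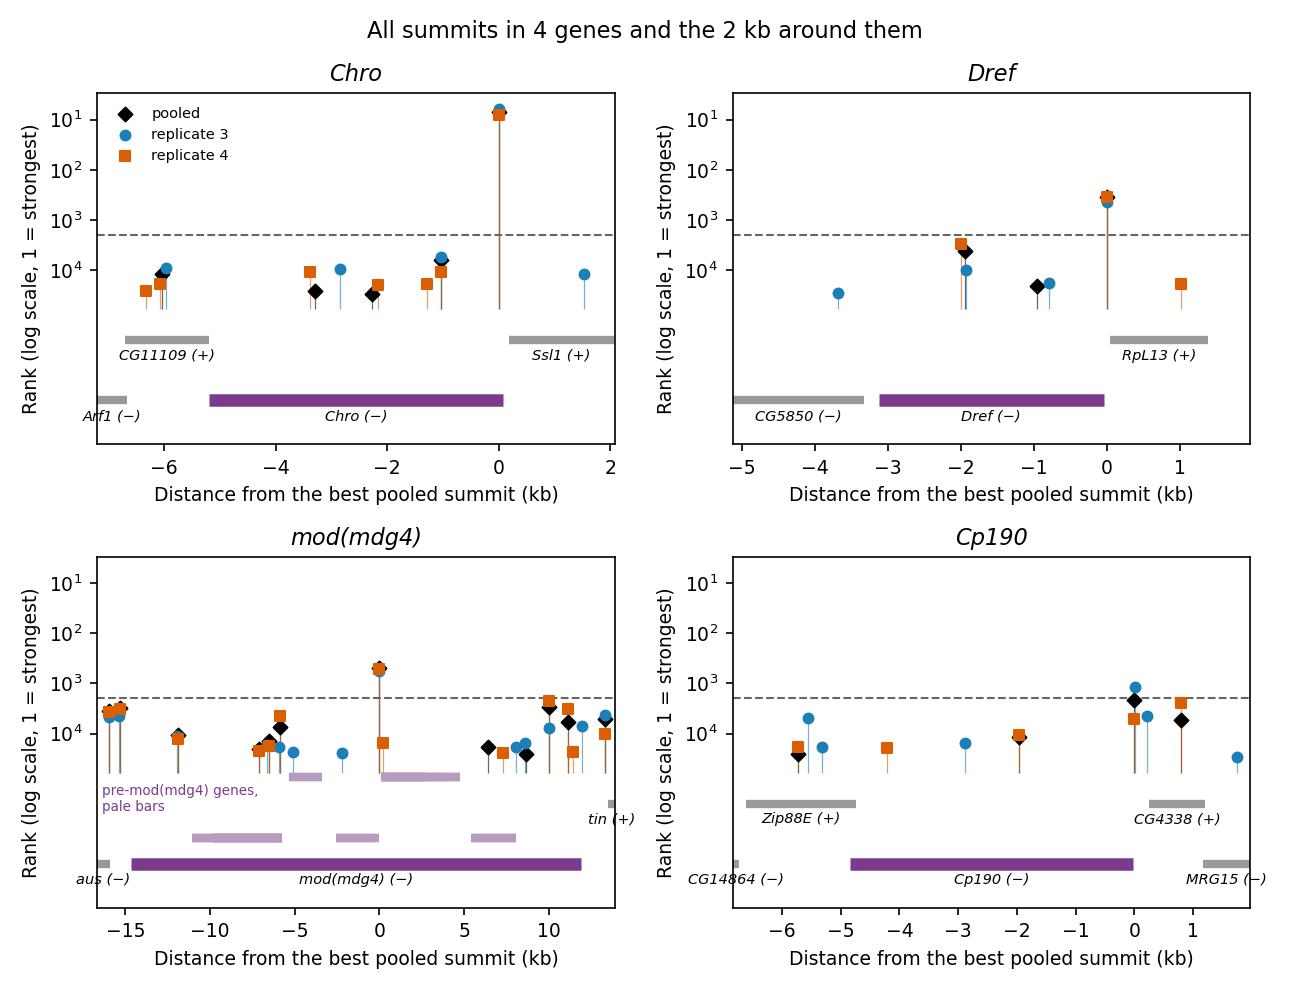
Every summit at Chro, Dref, mod(mdg4) and Cp190 and in the 2 kb around them, by distance in kb from the best pooled summit (x axis) and rank on a log axis with rank 1 at the top, for the pooled list, replicate 3 and replicate 4, with a dashed line at rank 1985 and bars for the genes below (strand in brackets). Each of Chro, Dref and mod(mdg4) has a single place above the line, with the 3 symbols together, while at Cp190 the replicate 3 summit is above it and the other 2 are below.

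Most pooled summits of the members were outside the optimal list. Counted once, the members had 42 pooled summits, of which 39 were outside it. These 39 are set beside the 25307 such summits in any protein-coding gene or within 2 kb of one, as a description with no test. Ranks beyond 10000 were held by 23 of the 39, against 70.6% of the 25307. By position, 46.2% were in coding exons (against 34.5%) and 23.1% in 5′ UTRs (against 2537 of the 25307). The 5′ UTR summits at 21359623, 21359016, 21371930 and 21358386 were in pre-mod(mdg4) units inside mod(mdg4). Those at 14769403 and 21349538 were in the neighbouring genes Spred and aus. Only 14770495 and 14770962 at BEAF-32 and 9258469 at Ibf2 were in a member's own 5′ UTR. Introns held 12.8% of the 39 (against 37.6%) and intergenic sequence 12.8% (against 11.8%). Both replicates met 35.9% within 100 bp (against 29.2%), replicate 4 alone 35.9% (against 43.6%), replicate 3 alone 10.3% (against 17.9%) and neither 17.9% (against 9.35%). Among all optimal peaks, coding exons held 0.856%. In 5 members the best pooled summit was nearer to the start of another gene than to one of its own, and of the 42 summits this held for 26. Other genes here include antisense RNA genes and the pre-mod(mdg4) units, and the summit shared by Ibf1 and Ibf2 was counted under Ibf1. The same share over all genes was not computed, so these 2 counts are not a trait of the members.

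The replicates placed the 3 optimal peaks of the members closer in rank than the median peak of like strength. Over pooled summits of ranks 1 to 500 met in both, that median was 1.52-fold, while Chro had 1.33-fold, Dref 1.26-fold and mod(mdg4) 1.09-fold. Of the 17 member summits met in both replicates, 7 had the better rank in replicate 3 and 10 in replicate 4. The widest gaps were at the Cp190 start, toward replicate 3, and at the mod(mdg4) 5′ UTR summit at 21359623, 4.18-fold toward replicate 4.

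**Figure D3:**
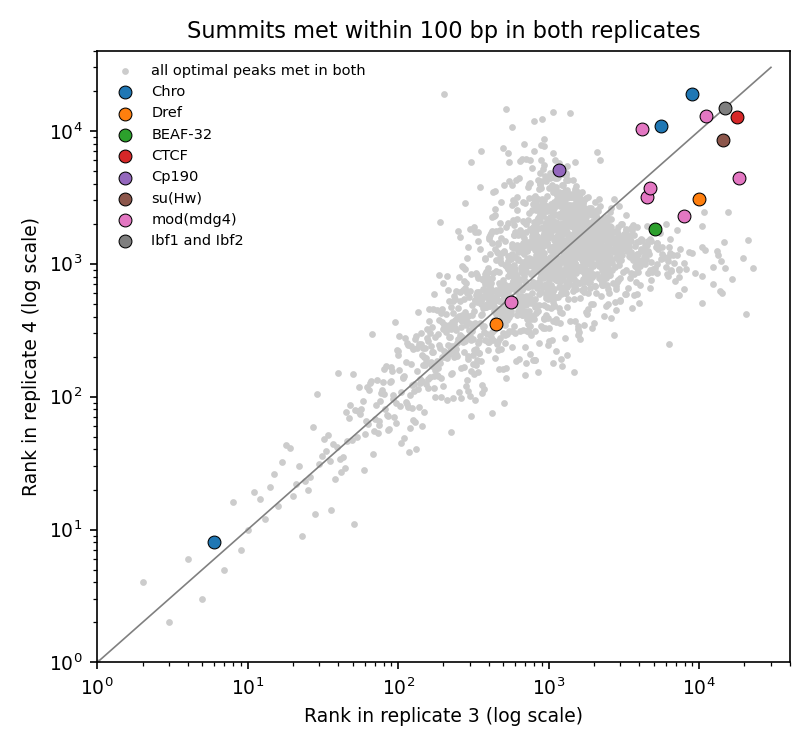
Rank in replicate 3 (x axis) against rank in replicate 4 (y axis), both on log axes with rank 1 the strongest, for all optimal peaks met within 100 bp in both replicates (grey) and for the 17 member summits met in both (coloured by gene), with a line of equal rank. The Chro, Dref and mod(mdg4) peaks lie near the line at 6 and 8, 445 and 352, and 560 and 512, and the Cp190 summit lies above it at 1180 and 5037.

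CGATA was found at both members with an optimal peak at their start, and a full DRE at Cp190 and Ibf2. Within 50 bp on either side of a summit, on both strands, the Chro and Dref summits each held 1 CGATA, 12 and 28 bp before the summit, and neither held the full DRE. CGATA was found in 21.0% of all optimal windows, in 12.5% of the windows of 27610 relaxed peaks that overlap no optimal peak, and in 23.6% of windows around the 19252 starts of protein-coding genes, so a match at a start is common. Of the 42 pooled summits of the members, 10 (23.8%) held CGATA in that window and 2 held a DRE, both outside the optimal list. A DRE was in 0.732% of the relaxed windows, 3.93% of the optimal ones and 4.48% of those at coding gene starts. BEAF-32 itself had 3 of the 10 with CGATA, at its summits 14769403, 14771524 and 14770962. The first of them, at the start of Spred, also held a Motif 1 core and a GAGA factor site. The Cp190 stretch held a full DRE, which covers the annotated start base, and a further CGATA. In windows of its length, 112 bp, 4.03% of optimal summits and 4.75% of coding gene starts held a DRE. The Ibf2 stretch also held a DRE over the annotated start base, which 3.02% and 3.56% of windows of 80 bp did, and beside the summit the word CAACACTG, found in 2.97% and 1.54%. Both stretches were cut to keep the motif at the start, so these shares do not measure how unusual their matches are. The DRE contains CGATA on both strands, so these counts overlap.

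None of the other sites searched was within 50 bp of the 3 optimal summits. They were the CTCF core AGGNGGC, the Su(Hw) core TGCATAC, the GAGA factor site GAGAG, the Motif 1 core GTCACACT, and the words CACAGTGG and CACTGTGC, which overlap each other. Over all optimal windows, their shares were 4.13%, 1.91%, 12.7%, 1.51%, 4.94% and 5.09%. Among the 39 pooled summits outside the optimal list, GAGAG was in 8 windows (20.5%, against 14.6% of relaxed windows) and AGGNGGC in 3 (7.69%, against 6.15%). Among all 42, TGCATAC, CACAGTGG and CACTGTGC were in none. Relaxed windows held these in 1.15%, 1.04% and 1%, so few matches could be looked for in 42. The longest word shared by the windows of Chro, Dref and Cp190 was TCGATAGCT, 9 bases with CGATA inside, which lies over the first capitals of the Chro and Dref stretches and, on the minus strand, of the Cp190 stretch. It was found in 0.856% of optimal windows, 0.145% of relaxed ones and 0.696% of those at coding gene starts, and it was picked after the sequences were seen. The GC content of these windows was 30.7% at Chro, 49.5% at Dref and 44.6% at Cp190, against a median of 39.6% over optimal peaks (quartiles 32.7% and 46.5%). A match is a run of letters, not a measured site, and says nothing about which protein is there.

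Genes with a start peak most like those of Chro and Dref were found among 5356 protein-coding genes with a summit within 500 bp of a TSS in the pooled list and both replicates, by the sum of the absolute differences in log10 rank over the 3 lists. For Chro they were PNPase, with pooled, replicate 3 and replicate 4 ranks of 8, 9 and 7 (sum 0.292), and px, with 6, 7 and 5 (sum 0.338). For Dref they were CG42542 and Kpc1, which share a summit ranked 366, 426 and 362 (signal 147, sum 0.0431). The likeness is in rank over 2 libraries and their pool alone.

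Genes for further insulator and chromosome architecture proteins were read in the same way. Of 16 other insulator and architectural protein genes, 5 (31.2%) had an optimal summit in the gene or within 2 kb, with a median best pooled rank of 4674, beside 3 of 9 (33.3%) and 2099 for the members and 25.4% and 5505 for all 11534 protein-coding genes with a pooled summit. The weakest best rank among the 16 was 28698, at Elba1, against 12568 among the members. At the start, Trl, which encodes GAGA factor, had a signal of 177 (rank 240) and a stronger one elsewhere in its region at 315 (rank 65). The genes for the partners of Chromator also had optimal peaks at their starts, with pzg, which encodes Z4, at 116 (ranks 701 and 629 in replicates 3 and 4) and JIL-1 at 82.2 (ranks 1864 and 1138). JIL-1 also had a stronger peak elsewhere in its region, 191 at rank 203. These were the 3 of the 16 with an optimal start peak, where 11.4% of all protein-coding genes had one.

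Cohesin, condensin and topoisomerase genes had optimal peaks at 2 of 12 (16.7%), with a median best pooled rank of 3313 over the 10 that had a pooled summit. These were at the starts of Top2 (86.1, rank 1180) and Cap-H2 (68.0, rank 1898). The cohesin subunit gene vtd and the cohesin loader gene Nipped-B had no pooled summit of any rank. The other 10 of the 12 had one, as had 82.7% of protein-coding genes, so the absence is not a trait of this list. Both were named after this was seen. The DREF, TRF2 and NURF genes, whose products work with DREF at promoters or remodel nucleosomes, had 2 of 6 (33.3%, median rank 3037), pzg again and Caf1-55. Caf1-55 had its peak, 390 at rank 43, away from its start, and was named after its value was seen. Of 10 genes listed as DREF targets, not all of them replication genes, 5 had an optimal summit (median rank 3122). Over all protein-coding genes the share was 21.0%. Dref itself was among the 5, with Mcm2 at 85.8 and CycA at 77.4 at their starts. The genes pzg and Dref are counted in more than 1 list, and no list was tested.

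**Figure D4:**
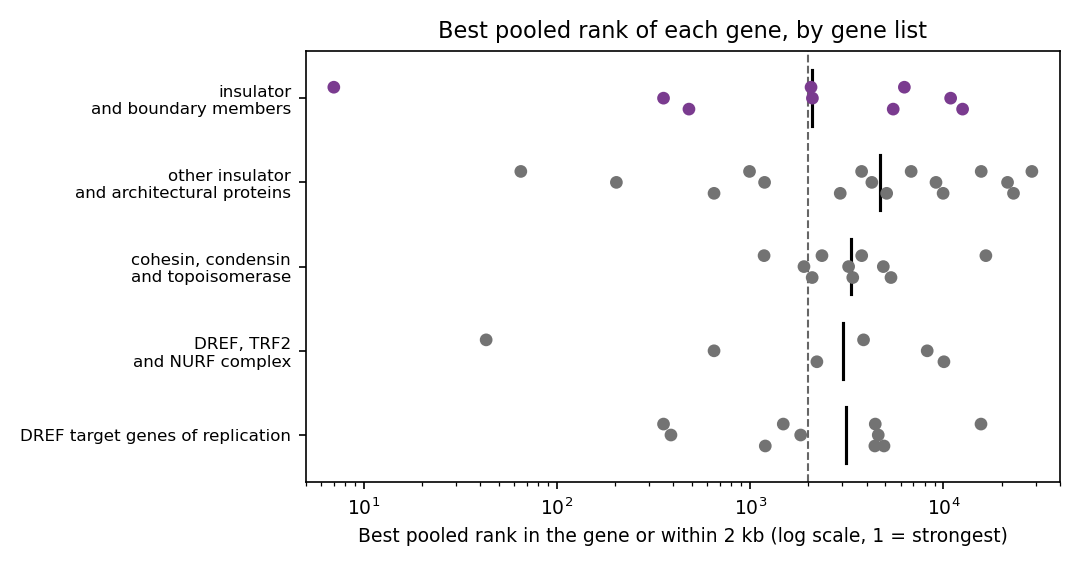
Best pooled rank of each gene (points) in the gene or within 2 kb, on a log axis with rank 1 at the left, for the 9 members and 4 other lists, with a vertical bar at each list's median and a dashed line at rank 1985. Medians run from 2099 for the members to 4674 for the other insulator and architectural protein genes, and Chro at rank 7 stands furthest left.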

How the data were processed

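Anti-GFP ChIP-seq of CG4282-GFP embryos was analysed from the authors' dm6 peak lists. Per the deposited file listing, relaxed lists of peaks and background were made from each replicate and 1 control file and from both replicates pooled, and the optimal list by the irreproducible discovery rate. Which aligner, caller and cutoff were used is not given in the sources used here. Peaks carry a deposited signal (enrichment, scale set by depth and caller) and a deposited −log10 q value, which was not used. Lists in dm3 were not used here.

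Summits were placed on Ensembl release 115 gene models (BDGP assembly 6.54, dm6 coordinates), UTRs first, then coding and other exons, introns and intergenic sequence. Sequences came from the RefSeq Release 6 genome. Peaks of the replicates were paired by summits within 100 bp. Python 3.11.15, numpy 2.4.6, pandas 2.3.3 and matplotlib 3.10.9 were used, and the counting and motif steps were tested on simulated data. No significance test was run, since there was 1 group and the members are not replicates.

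Genes named were the 9 members with their neighbours at each summit, the genes with a start within 500 bp of a member's optimal summit, up to 3 genes per further list with the highest signal at a start, and the 2 genes most like Chro and Dref. Caf1-55, Elba1, vtd and Nipped-B are outside that rule. Members and lists were chosen with earlier results of these data known. Of the 13 cohesin, condensin and topoisomerase names, 12 matched the annotation. Alternatives were the flank, TSS distance, motif window, a stricter list, interval overlap, other gene backgrounds and each replicate alone.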

Additional observations from a re-analysis of the deposited data

How the results depend on the processing

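The 3 members with an optimal peak stayed 3 with a flank of 1 kb, the stronger part of the optimal list and interval overlap in place of summits. With the gene body alone they were 2, without Dref. With a flank of 5 kb they were 4, with CTCF added by the pst peak, and 5 optimal summits in place of 3. Without replicate 3 they were 4, with BEAF-32 added, and without replicate 4 also 4, with Cp190 added. With a start within 500 bp there were 2 members, Chro and Dref, and 3 without replicate 4, with Cp190. The members' pooled summits were 42, and 25 in the gene bodies alone, and matches at the optimal summits were 2, and 1 in windows of 51 bp. The background share of 21.0% was 18.8% over all genes and 25.4% over protein-coding genes with a pooled summit. Of 44 values for the best rank of a member, 16 moved by more than 1 SD of its best ranks in the 2 replicates, a narrow bound where these were close, as for Dref and mod(mdg4). The Cp190 rank was 1180 without replicate 4. Without replicate 4, Ibf1 and Ibf2 both had 14893. Ibf1 has no value for the gene body alone. The cause of these moves was not tested. No paired analysis was possible because there was 1 group. Depth is unknown, there was no control library among the samples, and a summit between 2 starts cannot be assigned to either gene.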
